A study of Homo sapiens with 4 samples.

Results

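Gene expression in BEAS-2B cells given LPS for 2 h was compared with that in untreated BEAS-2B cells, with 1 library on each side. The genes described are the 13551 of 24424 gene symbols that reached 1 CPM (1 count in every 1000000 counts of the library) in either library. BEAS-2B cells descend from human bronchial epithelium and were immortalised; they are labelled wild type and were grown in BEBM medium with a BEGM kit. LPS is lipopolysaccharide, a component of the outer membrane of Gram-negative bacteria. The study is about occludin, a transmembrane protein of tight junctions, and airway inflammation, and it holds 4 libraries of RNA sequencing. The control library is labelled as having no treatment, and the LPS library as LPS alone; neither label mentions a transfection or a mock transfection. The other 2 libraries had been transfected for 24 h before LPS for 2 h, 1 with an siRNA against occludin (siOCLN+LPS) and 1 with wild-type occludin (wtOCLN+LPS). Their values are given beside those of the LPS library only to show the same genes in further cells given LPS. For the LPS, neither dose nor bacterial source is given in the sources used here.

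LPS is recognised at the cell surface by TLR4 with its co-receptor MD-2 (encoded by LY96), to which it is handed over by the carrier LBP and by CD14. The adaptor MYD88 then passes the signal through IRAK kinases, TRAF6 and the IkB kinases to the NF-kB transcription factors. NF-kB is held in the cytoplasm by IkB proteins until these are degraded. The adaptor TICAM1 (TRIF) belongs to a separate arm with TBK1, IRF3 and IRF7. Early NF-kB target genes code for chemokines and cytokines, and also for IkB proteins and enzymes such as A20 that end the signal. In the airway, epithelial cells are a source of chemokines that draw neutrophils from the blood.

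The control library held 15889736 counts and the LPS library 13867494, so that 1 count was worth 0.0629 and 0.0721 CPM. Ratios were taken of log2(CPM + 1) values, which shrinks the ratios of genes with few counts, and a gene was called at least 2-fold higher or lower when that log2 ratio reached 1 or -1. Each fold is a plain ratio of CPM with nothing added, followed by an exact 95% interval from the counts of the 2 libraries compared (Clopper-Pearson). With 1 library per group no test was possible and no p-value is given. The intervals cover counting error only, not the spread between cultures, and each statement compares libraries rather than conditions. OCLN, which encodes occludin, was at 55.4 CPM in control, 50.4 CPM in LPS, 21.0 CPM in siOCLN+LPS and 29.7 CPM in wtOCLN+LPS, so that the library labelled wtOCLN+LPS lay below both untransfected libraries.

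Several epithelial markers were present in both libraries. The keratins KRT7 (778 CPM in control against 742 CPM in LPS), KRT8 (442 and 372), KRT18 (335 and 254) and KRT17 (678 and 588) and the cadherin CDH1 (45.6 and 42.5) all lay within 2-fold. Other epithelial markers were low or near absent: GRHL2 had 0 counts in both libraries, ESRP1 had 0 and 6 counts, EPCAM was at 2.01 and 2.67 CPM and KRT19 at 5.41 and 3.68 CPM. KRT17 is 1 of 9 markers listed for basal and squamous cells. Of these ITGB4 (357 and 271 CPM), ITGA6 (72.7 and 63.2), NGFR (35.0 and 25.7) and KRT5 (18.9 and 22.4) were also present. In contrast TP63 (2.01 and 2.96 CPM), KRT14 (1.07 and 0.577), KRT6A (0.818 and 1.51) and KRT15 (1 and 0 counts) were near absent. The 9 fibroblast and mesenchyme markers summed to 1672 CPM in control and 1598 CPM in LPS, mostly from the filament gene VIM (1520 and 1469 CPM). Of these markers COL3A1, DCN and LUM had 0 counts in both libraries, while COL1A1 was at 57.6 and 62.7 CPM and THY1 at 81.6 and 52.7 CPM. Markers of other cells that make cytokines were low on both sides. The 8 markers of T, NK and B cells summed to 1.07 CPM in control against 0.288 CPM in LPS, with CD3D, CD3E, CD2 and MS4A1 among those at 0 in both. The 10 monocyte and macrophage markers summed to 17.6 and 17.5 CPM, nearly all of it CD68, a lysosomal protein of many cell types, while CD163, FCGR3A and TYROBP were at 0. The 6 neutrophil markers summed to 1.82 and 1.66 CPM; FCGR3B, CXCR2, MPO and S100A12 were at 0, while CSF3R had 17 and 15 counts and ELANE 12 and 8. The 7 ciliated cell markers summed to 4.28 and 3.03 CPM, with FOXJ1 and DNAI1 at 0 and CAPS at 61 and 35 counts. The 6 club and goblet cell markers summed to 5.35 CPM in control and 10.2 CPM in LPS. Of these SCGB1A1 and BPIFB1 were at 0 and MUC5B had 30 counts in each, while the mucin MUC5AC had 53 and 112 counts and was past 2-fold.

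At the 2-fold threshold and with a pseudocount of 1 CPM, the LPS library differed from control mostly by genes that were higher. Of the 13551 genes, 217 (1.6%) reached 2-fold on the higher side in LPS and 28 (0.207%) on the lower side. These shares stand behind every count of list members given below. The gene lists were chosen with earlier results of these data known, so such counts are descriptions and no independent evidence about a group of genes. In RNA from whole cultures, a change in how many cells express a gene and a change in RNA per cell cannot be told apart. By the size of the log2 ratio, 152 of the 217 were 2- to 4-fold higher, 37 were 4- to 8-fold, 13 were 8- to 16-fold and 15 were at least 16-fold higher. Most genes had close values in the libraries compared: of all 13551, 90.9% had a log2 ratio between -0.5 and 0.5, the median was -0.09 and 3973 were above 0. The genes just past the threshold were SERPINB4, TRIB1 and RIPK4 (1.01, 1.01 and 1.02), and those just short of it CCDC180, C16orf46 and BCL3, all at 0.99. The 217 genes took 0.880% of all counts in control and 3.77% in LPS, against 4.51% in siOCLN+LPS and 4.43% in wtOCLN+LPS. Their larger share in LPS than in control follows from how they were picked, and the control values used for picking also enter the comparison with the transfected libraries.

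**Figure D1:**
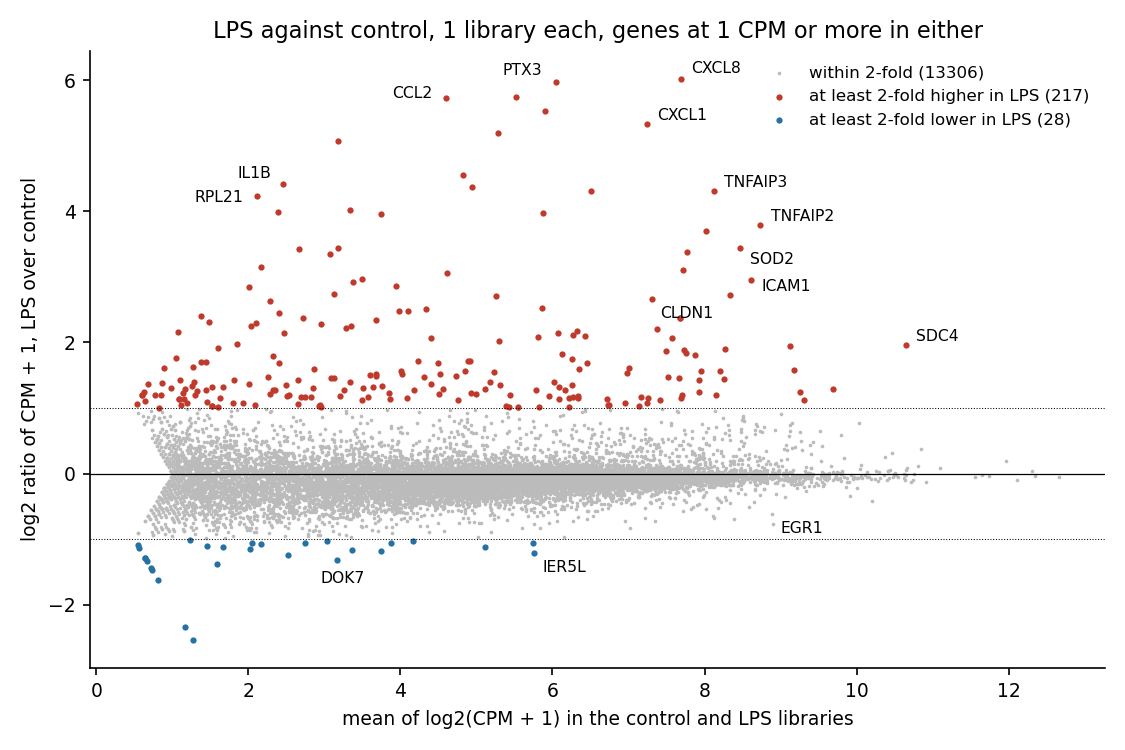
Log2 ratio of CPM + 1 between the LPS and control libraries (vertical axis) against the mean log2(CPM + 1) of both (horizontal axis), 1 point for each of 13551 genes, with 1 library a side. Red points (217) lie at least 2-fold higher in LPS and reach a log2 ratio of 6.02, and blue points (28) lie at least 2-fold lower; dotted lines mark 2-fold.

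Genes past the threshold were found at every level of expression. Among genes at 100 CPM or more in control, 27 of 2650 were at least 2-fold higher (1.02%) and 0 lower. From 20 to 100 CPM the numbers were 51 of 5603 (0.910%) and 5, from 5 to 20 CPM 45 of 2843 (1.58%) and 8, and from 1 to 5 CPM 48 of 2210 (2.17%) and 15. The remaining 46 of the 217 were below 1 CPM in control and were tested through the LPS library alone, so that their direction was set by the filter. Among genes described here these include CX3CL1, IL7R, MMP3, MMP9, PI3, BCL2A1 and HAS1, besides those named with their lists. Measured as CPM added, SDC4, a heparan sulfate proteoglycan of the cell surface, gained most, from 813 to 3174 CPM. CXCL8 followed with 1632 CPM added, TNFAIP2 with 1471 and TNFAIP3 with 1181.

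Chemokines that draw neutrophils were higher in LPS in every tested member. These genes form a cluster on chromosome 4, and 6 of the 7 listed members were tested, all 6 at least 2-fold higher (median log2 ratio 4.34, against -0.09 over all genes tested). CXCL8, which encodes interleukin-8, stood at 24.5 CPM in control, 1657 CPM in LPS, 2000 CPM in siOCLN+LPS and 2075 CPM in wtOCLN+LPS, a fold of LPS over control of 67.5 (61.1 to 74.8). CXCL1 stood at 22.8 CPM in control and at 962, 1758 and 1721 CPM in the LPS, siOCLN+LPS and wtOCLN+LPS libraries, with a fold of 42.1 (37.9 to 46.9) for LPS over control. The 3 libraries given LPS were thus all far above control for both genes, with the transfected libraries the highest. CXCL2 (19.4 and 405 CPM) and CXCL3 (5.79 and 139 CPM) were 20.9-fold (18.6 to 23.5) and 24.0-fold (19.5 to 30.0) higher in LPS. CXCL1, CXCL2 and CXCL3 are similar in sequence, and how the counting treated reads shared between them is not given in the sources used here. CXCL6 was 15.8-fold higher (10.6 to 24.5) and CXCL5, which had the lowest ratio of the group, 6.29-fold (5.08 to 7.87). Together the listed members summed to 80.5 CPM in control against 3229 CPM in LPS.

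Other chemokines were divided between a few with high ratios and many with no counts. Of 22 listed, 6 were tested and 3 were at least 2-fold higher. CCL2, which draws monocytes, was at 2.33 CPM in control, 176 CPM in LPS, 958 CPM in siOCLN+LPS and 934 CPM in wtOCLN+LPS, with a fold of 75.5 (54.6 to 107.5) for LPS. The transfected libraries thus held several times the CCL2 level of the LPS library. CCL20, which draws dendritic cells and Th17 cells through the receptor CCR6, was at 7.80 CPM in control against 406.5 CPM in LPS, a fold of 52.1 (43.6 to 62.8). CX3CL1 had 3 counts in control against 24 in LPS, a ratio of 9.17 (2.78 to 47.6). The lymphocyte chemokines linked to interferon signalling gave few counts: CXCL10 had 3 counts in control against 6 in LPS, CXCL11 had 3 and 1, and CXCL9 had 0 in both. CCL5 was at 4.85 CPM in control against 4.69 CPM in LPS.

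Among interleukins and colony-stimulating factors, 9 of 17 tested members (34 listed) were at least 2-fold higher and 0 lower, and the list median was 1.27. Over all genes tested 1.6% were at least 2-fold higher. Of the 17, 5 were tested through the LPS library alone, so that their direction was set by the filter. CSF2, IL1B and EBI3 are among these 5. All 3 colony-stimulating factors were among the 9. CSF3, the growth factor of granulocytes, was at 5.29 CPM in control against 337 CPM in LPS, a fold of 63.7 (51.4 to 80.0). CSF2, the granulocyte-macrophage factor, went from 9 counts to 718, a fold of 91.4 (47.9 to 200.7). CSF1, the macrophage factor, was already at 125 CPM in control and stood at 832 CPM in LPS, 6.65-fold higher (6.34 to 6.98). IL6, an inducer of the acute-phase response, was 28.1-fold higher (22.4 to 35.8), at 4.85 CPM in control against 136 CPM in LPS. The related cytokine LIF was 3.76-fold higher (3.59 to 3.93), at 158 and 595 CPM. IL1A was at 1.51 and 39.7 CPM, a fold of 26.3 (17.5 to 41.3), while IL1B had 3 counts in control against 338 in LPS, a ratio of 129 (43.8 to 629). IL32 was 2.46-fold higher, and EBI3, a subunit shared by IL-27 and IL-35, went from 5 to 35 counts. On the other side, IL16 (8.37 and 4.18 CPM) and TSLP, an epithelial cytokine of allergic responses (22 and 4 counts), had the lowest log2 ratios of the list, -0.85 and -0.89. They did not reach the threshold. These are ratios of CPM + 1, which shrink with few counts, as for TSLP, and are not comparable with the plain folds given above.

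**Figure D2:**
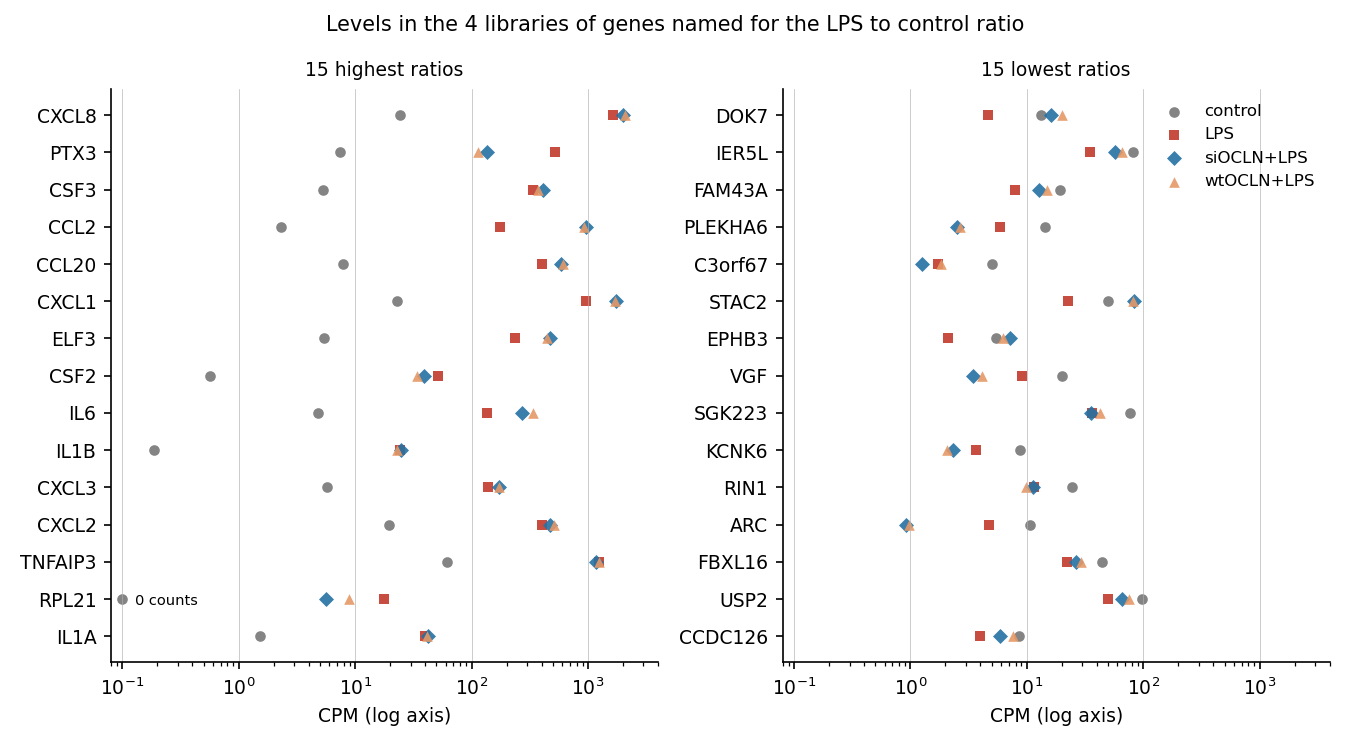
CPM (log axis) in the control, LPS, siOCLN+LPS and wtOCLN+LPS libraries, 1 point a library, of the 15 top and 15 bottom genes by log2 ratio of LPS to control. Genes had to reach 5 CPM in the control or LPS library, and 0 counts are drawn at the left edge. The LPS library lies above control for the 15 highest and below it for the 15 lowest because the genes were picked that way. Both transfected libraries also lie above control for the 15 highest, and they do so for DOK7, STAC2 and EPHB3 among the lowest.

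TNF, the prototype of its family, had 2 counts in control against 69 in LPS, a ratio of 39.5 (10.5 to 333). TNFSF14, also called LIGHT, was at 4.72 CPM in control against 40.4 CPM in LPS, 8.56-fold higher (6.71 to 11.04), but at 5.38 and 5.09 CPM in the transfected libraries. Its level in those libraries was thus near that of control. These 2 were the members past 2-fold among the 9 tested ligands of the TNF superfamily, 3 of which, TNF included, were tested through the LPS library alone. Of 35 tested cytokine and TNF receptors, 3 were at least 2-fold higher. TNFRSF9 (4-1BB) was 9.92-fold higher (7.25 to 13.9), IL7R went from 8 to 136 counts, and IFNGR2, a chain of the interferon gamma receptor, was 2.09-fold higher (1.94 to 2.24). The median over the receptors was 0.15.

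The genes that sense LPS were mostly within 2-fold. Of 35 listed members, 32 were tested, 5 were at least 2-fold higher and 0 lower, with a median of 0.03. Over all genes tested 1.6% were at least 2-fold higher, so 5 of 32 is a larger share. TLR4, the receptor, was at 23.1 CPM in control against 26.3 CPM in LPS. LY96, which encodes its co-receptor MD-2, had 0 counts in both libraries, as did LBP, and 0 counts also allow up to 3 counts, or 0.189 CPM in control against 0.216 CPM in LPS. LY96 and LBP were at 0 counts in the transfected libraries too. CD14 was at 8.37 CPM in control against 5.99 CPM in LPS, a log2 ratio of -0.42, the lowest of the list. TLR2, the receptor of bacterial lipopeptides, was at 6.54 and 20.6 CPM, 3.14-fold higher (2.50 to 3.97). Among other receptors TLR3 stood at 20.2 CPM in both libraries, TLR6 at 2.77 and 2.88 CPM, and TLR1 and TLR5 near or below 1 CPM.

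Downstream of the receptors, the kinase IRAK2 was at 7.49 CPM in control against 69.7 CPM in LPS, 9.30-fold higher (7.68 to 11.4). MAP3K8 (TPL2), a kinase that links the IkB kinases to ERK, was 6.95-fold higher (6.03 to 8.05), at 13.9 and 96.7 CPM. IKBKE, an IkB kinase-related kinase, was 2.94-fold higher (2.52 to 3.43), and IRAK3, a brake on IRAK signalling, 2.22-fold (2.11 to 2.34). Core kinases and adaptors of the pathway lay within 2-fold: MYD88 was at 26.4 and 22.4 CPM, IRAK1 at 310 and 303, IRAK4 at 11.3 and 9.66, TRAF6 at 36.5 and 30.5, IKBKB at 52.4 and 54.1, CHUK at 67.9 and 68.3 and IKBKG at 57.5 and 58.5. In the TRIF arm the adaptor TICAM1 was at 29.7 and 52.5 CPM, a log2 ratio of 0.80. TICAM2, at 7 and 23 counts (0.88), was tested through the LPS library alone, so that its direction was set by the filter. The other members of this arm, TBK1, IRF3 and IRF7, had log2 ratios of 0.13, -0.14 and -0.19.

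Of the 11 genes of NF-kB subunits and IkB proteins, 8 were at least 2-fold higher in LPS, against 1.6% of all genes tested. Their median was 1.84, and all 11 had log2 ratios above 0. This list, like the others, was chosen with earlier results of these data known. NFKBIZ, a nuclear IkB protein that acts with NF-kB on a second set of targets, had the highest ratio, at 13.8 CPM in control, 231 CPM in LPS, 299 CPM in siOCLN+LPS and 284 CPM in wtOCLN+LPS, 16.8-fold higher in LPS (14.6 to 19.3). NFKBIA, the main inhibitor IkB alpha, was at 66.6 and 700 CPM, 10.5-fold higher (9.86 to 11.2), and NFKBIE was 4.35-fold higher (3.90 to 4.86). The subunit genes followed, with NFKB1 5.21-fold (4.91 to 5.52), REL 4.65-fold (4.37 to 4.95), NFKB2 3.61-fold (3.42 to 3.81) and RELB 2.27-fold (2.08 to 2.47) higher. NFKBID was 2.54-fold higher. The 3 members within 2-fold were BCL3 (60.3 and 120 CPM, log2 ratio 0.99), NFKBIB (39.4 and 55.0 CPM, 0.47) and RELA, the main activating subunit (112 and 129 CPM, 0.20). BCL3 was just short of the threshold and passed it under TMM, median ratio and upper quartile scaling.

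**Figure D3:**
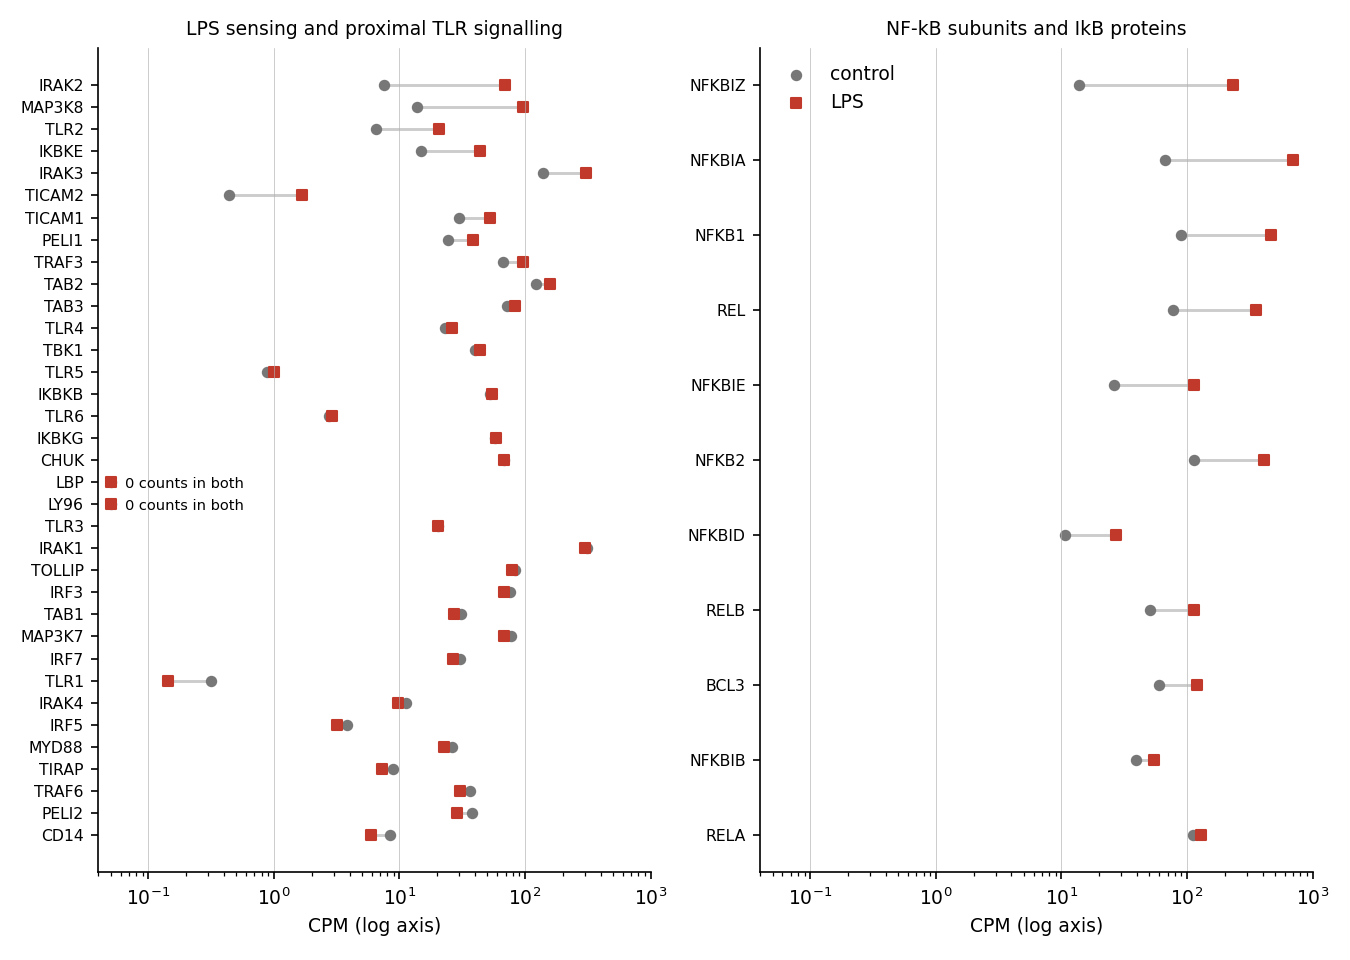
CPM (log axis) in the control (circles) and LPS (squares) libraries of the 35 listed genes of LPS sensing and proximal signalling and of the 11 NF-kB subunit and IkB genes, ordered by log2 ratio; genes with 0 counts in both are drawn at the left edge. Most sensing genes have both points together, while 8 of 11 NF-kB and IkB genes have them at least 2-fold apart.

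Of 26 tested genes that limit inflammatory signalling, 8 were at least 2-fold higher and 0 lower (median 0.25), against 1.6% and 0.207% of all genes tested. TNFAIP3, which encodes the ubiquitin-editing enzyme A20, was at 61.6 CPM in control and at 1242, 1183 and 1256 CPM in the LPS, siOCLN+LPS and wtOCLN+LPS libraries, 20.2-fold higher in LPS (18.9 to 21.5). Its level was thus nearly the same in the 3 libraries given LPS. Its partner TNIP1 was at 284 and 1100 CPM, a fold of 3.88 (3.75 to 4.01). ZC3H12A (Regnase-1), a nuclease that degrades cytokine mRNAs, was 8.75-fold higher (8.22 to 9.32), and its relative ZC3H12C 2.97-fold (2.83 to 3.12). SOCS3, a brake on IL-6 signalling, was 3.60-fold higher, IER3 3.54-fold, TNFAIP8 4.52-fold and TRAF1 3.16-fold. The other 18 had log2 ratios between -0.32 and 0.61.

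Transcription factors of inflammation and epithelial defence had 8 of 23 tested members at least 2-fold higher (median 0.55), against 1.6% of all genes tested. ELF3, an epithelial ETS factor, was at 5.41 CPM in control, 234 CPM in LPS, 470 CPM in siOCLN+LPS and 446.5 CPM in wtOCLN+LPS, 43.3-fold higher in LPS (35.0 to 54.3). IRF1 was 5.20-fold higher (4.91 to 5.51), CEBPD 3.70-fold (3.49 to 3.92), ETS1 2.997-fold (2.90 to 3.09), and STAT5A, HIVEP1, HIVEP2 and NFATC1 between 2.31- and 2.54-fold. STAT3 stood at 224 and 238 CPM, and HIF1A at 642 and 860 CPM (log2 ratio 0.42).

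Immediate early genes did not reach 2-fold above control in any of 29 tested members, although 20 of the 29 lay above 0 (median 0.26). Over all genes tested 1.6% were at least 2-fold higher and 0.207% lower, so a count of 0 higher among 29 does not set these genes apart. FOSL1, FOSL2 and MAFF had log2 ratios of 0.76, 0.73 and 0.70, and MYC 0.57. FOS itself was at 45.9 CPM in control against 29.4 CPM in LPS (-0.63), and EGR1 at 585 and 380 CPM (-0.62). Both values lay on the lower side without reaching the threshold, and stayed below 0 under every scaling tried. The 2 members past 2-fold lower were IER5L, at 81.8 and 34.6 CPM, a control to LPS ratio of 2.36 (2.13 to 2.63), and ARC, at 10.7 and 4.76 CPM, a ratio of 2.25 (1.68 to 3.03). ARC was no longer past 2-fold under TMM, median ratio or upper quartile scaling, and BTG2 then was, on the higher side. Of 13 Kruppel-like factors only KLF4 was past 2-fold (73.5 and 215 CPM, 2.92-fold), and of 16 MAP kinase phosphatase and Sprouty genes only DUSP6 (97.7 and 201 CPM, 2.06-fold).

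Cell surface genes that leukocytes bind were partly higher, with 7 of 17 tested members at least 2-fold and a median of 0.35. Over all genes tested the share was 1.6%. VCAM1 and ICAM4 among the 7 were tested through the LPS library alone. ICAM1, the ligand of leukocyte integrins, was at 139 CPM in control, 1082 CPM in LPS, 1528 CPM in siOCLN+LPS and 1445 CPM in wtOCLN+LPS, 7.77-fold higher in LPS (7.43 to 8.13). VCAM1 had 0 counts in control against 22 in LPS, at least 8.40-fold higher against the limit of 3 counts in control. SDC4 was 3.90-fold higher (3.83 to 3.98), CD83 4.53-fold and ICOSLG, a co-stimulatory ligand of T cells, 3.42-fold (2.89 to 4.07). ICAM4, whose gene lies next to ICAM1, went from 15 to 118 counts. CD44, the hyaluronan receptor, was at 31.8 and 65.5 CPM, 2.06-fold higher (1.84 to 2.30), but at 6.58 and 7.14 CPM in the transfected libraries, below control.

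Secreted defence proteins had 6 of 12 tested members at least 2-fold higher (38 listed, 25 below 1 CPM in both, 1 not matched). PTX3, a soluble pattern recognition protein, was at 7.36 CPM in control, 525 CPM in LPS, 136 CPM in siOCLN+LPS and 113 CPM in wtOCLN+LPS, 71.4-fold higher in LPS (59.4 to 86.4). The acute-phase genes SAA2 and SAA1, whose sequences are similar enough to share reads, were 10.1-fold (7.48 to 13.9) and 2.25-fold (2.06 to 2.45) higher. PI3 (elafin), an elastase inhibitor, went from 14 to 111 counts, LCN2, which binds bacterial siderophores, from 35 to 89, and the mucin MUC5AC from 53 to 112. Of the complement genes, CFB, a protease of the alternative pathway, was 2.12-fold higher (1.98 to 2.26), while C3 was at 797 and 1362 CPM (log2 ratio 0.77). It added 564.5 CPM without reaching 2-fold.

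Proteases, their inhibitors and the hyaluronan matrix each had several members at least 2-fold higher, where the share over all genes tested was 1.6%. Of 22 genes of plasminogen activation, serpins and tissue factor, 9 were at least 2-fold higher (median 0.67), but SERPINA3, SERPINB2, SERPINB3 and SERPINB4 among the 9 were tested through the LPS library alone. F3, tissue factor, which starts coagulation, was at 184 and 504 CPM, 2.73-fold higher (2.62 to 2.86), and PLAU, urokinase, at 147 and 398 CPM, 2.71-fold (2.58 to 2.84). The inhibitor genes SERPINA3 (15 and 275 counts), SERPINA1 (149 and 461), SERPINB2 (15 and 154), SERPINE2 (132 and 369) and TFPI2 (172 and 444) were also past 2-fold, as were SERPINB3 and SERPINB4 on 6 or fewer counts in control. These 2 serpins are similar in sequence. Among metalloproteinases MMP3 went from 5 to 275 counts, a fold of 63.0 (26.7 to 196), MMP9 from 0 to 19 and ADAMTS9 from 45 to 108, while the other 18 tested members lay within 2-fold. TNFAIP6, a hyaluronan-binding protein, was at 2.39 and 51.8 CPM, 21.7-fold higher (15.6 to 30.9), and at 3.43 and 4.34 CPM in the transfected libraries. HAS1, a hyaluronan synthase, went from 7 to 35 counts. Together with PTX3 and CD44, TNFAIP6 and HAS1 were the 4 of 10 tested hyaluronan matrix genes past 2-fold, all higher. MMP3, SERPINB2 and TNFAIP6 thus had a far higher level in the LPS library than in both transfected libraries.

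None of the 13 tested prostaglandin and leukotriene genes was past 2-fold, where the share over all genes tested was 1.6% higher and 0.207% lower, so a count of 0 does not set them apart. PTGS2, which encodes cyclooxygenase-2, had 8 counts in control against 10 in LPS. PTGES, the inducible prostaglandin E synthase, was at 15.6 and 26.8 CPM (log2 ratio 0.74).

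Growth factors, survival genes and metabolism also had members past the threshold. The endothelin gene EDN1 was at 3.65 and 21.2 CPM, 5.81-fold higher (4.37 to 7.84), the matrix protein TNC at 18.4 and 77.8 CPM, 4.22-fold (3.71 to 4.82), and PDGFB, STC1 and TGFB2 between 2.09- and 2.31-fold. In all, 6 of 20 tested secreted growth and vascular factors were at least 2-fold higher. The EGF receptor ligand EREG was at 396 and 941 CPM, 2.38-fold higher (2.31 to 2.45), and LRIG1, which limits EGF receptor signalling, 2.23-fold (2.07 to 2.39). BIRC3, an inhibitor of cell death, was at 70.9 CPM in control, 934 CPM in LPS, 1300 CPM in siOCLN+LPS and 1345 CPM in wtOCLN+LPS, 13.2-fold higher in LPS (12.4 to 14.0). CFLAR, which blocks caspase-8, was 2.13-fold higher, and so was the pro-apoptotic BBC3, 2.51-fold, and BCL2A1 went from 1 to 31 counts. These were 4 of 26 tested survival and death genes.

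SOD2, the mitochondrial superoxide dismutase, was the only one of 18 tested antioxidant genes past 2-fold, at 106 and 1165 CPM, 10.99-fold higher (10.5 to 11.6). The other 17 had log2 ratios between -0.25 and 0.27. With 1.6% of all genes tested at least 2-fold higher, few of 18 would pass, so this count does not set the list apart. Among 17 metabolic genes of inflammation, 4 were past 2-fold: the hexose transporter SLC2A6 (3.46-fold), GCH1, which starts tetrahydrobiopterin synthesis (3.06-fold), KYNU of tryptophan breakdown (2.35-fold) and NAMPT, which makes the NAD precursor NMN (430 and 939.5 CPM, 2.19-fold).

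CLDN1, a barrier-forming claudin, was the only one of 21 tested tight junction genes past 2-fold. It stood at 62.2 CPM in control, 397.5 CPM in LPS, 313 CPM in siOCLN+LPS and 339 CPM in wtOCLN+LPS, a fold of 6.39 for LPS (5.97 to 6.85), with all 3 libraries given LPS above control. TJP1, the scaffold ZO-1, was at 251 and 225 CPM, and CGN, cingulin, at 20.1 and 13.8 CPM (log2 ratio -0.51). None of the 22 tested adherens junction and desmosome genes reached 2-fold, with log2 ratios from -0.34 to 0.21. Over all genes tested 1.6% were at least 2-fold higher and 0.207% lower. At these shares few or no members would pass in lists of 21 or 22, so neither count sets the junction genes apart.

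The tested interferon genes and interferon-stimulated genes had no member past 2-fold, and at the share of 1.6% over all genes a count of 0 among so few is not particular to them. IFNB1, IFNG, IFNL1, IFNL2 and IFNL3 had 0 counts in both libraries, and IFNE, an interferon of epithelia, was at 7.99 and 7.57 CPM. All 41 tested interferon-stimulated genes lay within 2-fold (median -0.12), with TRIM25, DDX58 and GBP1 highest at 0.98, 0.93 and 0.88. The first 2 of these passed 2-fold under TMM, median ratio and upper quartile scaling.

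For housekeeping and stress programmes the range of log2 ratios is given, since few of so many genes would pass at the share over all genes tested. None of the 35 respiratory chain genes (log2 ratios from -0.26 to 0.14), 29 proteasome genes (-0.25 to 0.37), 39 cell cycle genes (-0.32 to 0.90), 18 heat shock genes (-0.47 to 0.29), 21 genes of cholesterol synthesis (-0.81 to 0.69) or 30 genes of the unfolded protein and integrated stress response (-0.72 to 0.64) was past 2-fold. Of 14 Notch pathway genes 10 were below 0, with the lowest median of the lists, -0.25; the ligand JAG2 was at 19.2 and 9.81 CPM (-0.90). None of the 14 reached 2-fold, and over all genes tested 9578 of 13551 were below 0.

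**Figure D4:**
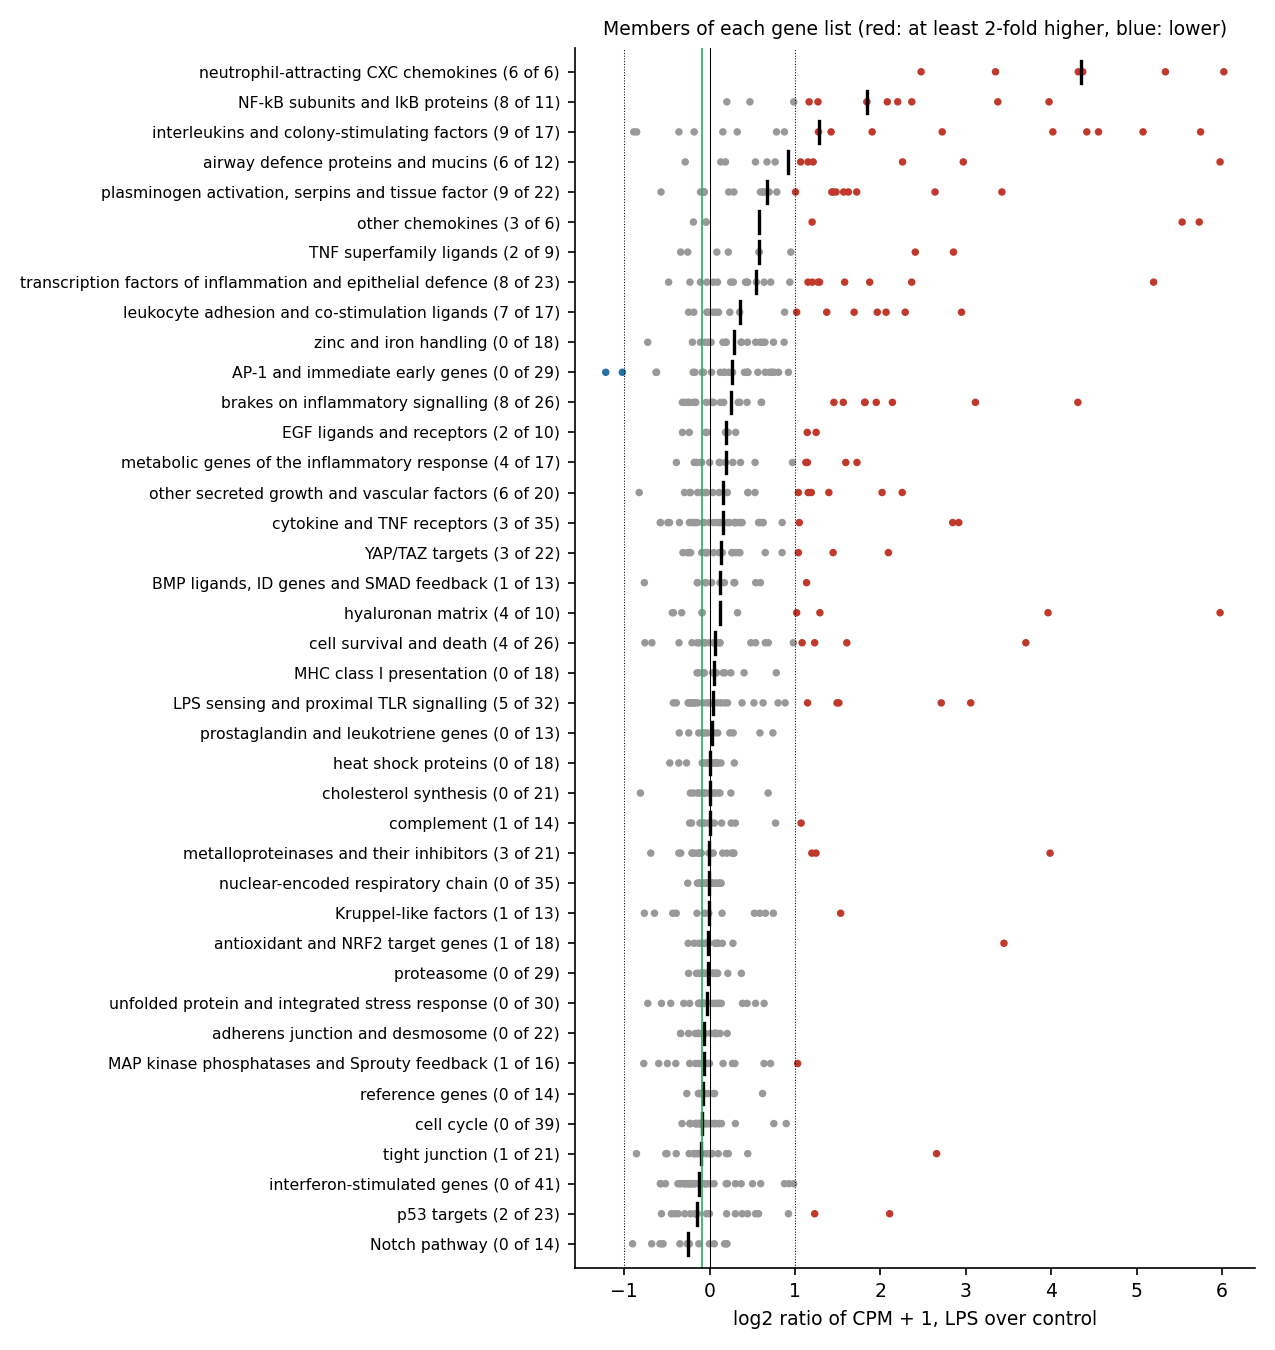
Log2 ratio of CPM + 1, LPS over control, of every tested member (points) of each gene list with 5 or more tested members; the black bar is the list median, the green line the median of all 13551 genes (-0.09), dotted lines mark 2-fold, and brackets give the members at least 2-fold higher of those tested. CXC chemokines lie highest (median 4.34) and the Notch pathway lowest (-0.25).

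The 28 lower genes were fewer, and less far from control. Of these, 9 are readthrough symbols, which name transcripts spanning adjacent genes and share their reads with them, as do 12 of the 217 higher genes; without readthrough and small RNA symbols 205 were higher and 19 lower. DOK7, an adaptor of the muscle receptor kinase MuSK, had the lowest log2 ratio among genes at 5 CPM or more, -1.32. It was at 13.2 CPM in control, 4.69 CPM in LPS, 16.2 CPM in siOCLN+LPS and 19.9 CPM in wtOCLN+LPS, a control to LPS ratio of 2.82 (2.13 to 3.78). STAC2 (49.9 and 22.6 CPM, then 82.5 and 81.2 CPM in the transfected libraries) and the ephrin receptor EPHB3 (5.48 and 2.09 CPM, then 7.15 and 6.29 CPM) likewise lay above control in both transfected libraries. The LPS library was thus the lowest of the 4 for these 3 genes. In contrast SGK223, a pseudokinase, was at 76.3 CPM in control and at 36.3, 35.7 and 42.3 CPM in the libraries given LPS, and RIN1, a RAS effector, at 24.6 CPM and then 11.5, 11.3 and 9.89 CPM. The neuropeptide precursor VGF (20.2 and 9.16 CPM) and the potassium channel KCNK6 (8.69 and 3.68 CPM) were lower still in the transfected libraries. EPHB3, SGK223, RIN1, VGF and KCNK6 were no longer past 2-fold under TMM scaling, with log2 ratios of -0.995, -0.96, -0.94, -0.97 and -0.97, nor under median ratio or upper quartile scaling.

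Promoter sequence was examined because NF-kB binds a known DNA motif, and upstream sequences of 5 of the genes with the highest ratios are shown to let that motif be seen. RefSeq sequences of GRCh38.p14 were used, while the counts were made on hg19. The 250 bases before the annotated start were searched for the kB-like letters GGANNTTCC, for the AP-1-like letters TGANTCA (both on either strand) and for the TATA box letters TATAAA on the gene's strand. Among the 15 genes with the highest ratios, 13 had a sequence and 7 of them held the kB-like letters. The first 5 of these by ratio follow, each as the 150 bases that end just before the start, 5′ to 3′ on the gene's strand, with the kB-like match in capitals.
CXCL8: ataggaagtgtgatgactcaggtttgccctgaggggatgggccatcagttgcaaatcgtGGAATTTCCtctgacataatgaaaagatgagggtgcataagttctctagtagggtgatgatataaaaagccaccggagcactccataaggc
CXCL1: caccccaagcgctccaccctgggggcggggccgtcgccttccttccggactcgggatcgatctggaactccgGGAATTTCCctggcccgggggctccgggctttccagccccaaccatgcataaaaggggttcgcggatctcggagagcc
CSF2: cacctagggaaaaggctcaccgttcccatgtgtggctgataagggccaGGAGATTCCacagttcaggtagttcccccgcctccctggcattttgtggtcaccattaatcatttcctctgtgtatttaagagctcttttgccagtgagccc
IL6: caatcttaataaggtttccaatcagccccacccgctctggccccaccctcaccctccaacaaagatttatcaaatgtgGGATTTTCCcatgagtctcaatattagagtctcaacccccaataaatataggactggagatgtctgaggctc
CXCL3: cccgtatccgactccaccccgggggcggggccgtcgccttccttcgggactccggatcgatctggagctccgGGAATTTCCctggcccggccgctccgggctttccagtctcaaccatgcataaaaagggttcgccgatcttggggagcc

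These windows are chr4:73740419-73740568 for CXCL8, chr4:73869243-73869392 for CXCL1, chr5:132073639-132073788 for CSF2 and chr7:22727050-22727199 for IL6, all on the plus strand, and chr4:74038690-74038839 on the minus strand for CXCL3. The match lay close to the start in each, its first base 91 bases before the start in CXCL8, 78 in CXCL1 and CXCL3, 102 in CSF2 and 72 in IL6. The windows of CXCL1 and CXCL3 were identical at 129 of 150 positions, so these are not independent examples.

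Across the table, the kB-like letters were present in 3.88% of all 27305 upstream windows and in 407 of 9992 windows of tested genes (4.07%). Genes at least 2-fold higher in LPS held them in 28 of 149 windows (18.8%), genes at least 8-fold higher in 10 of 24 (41.7%), and genes at least 2-fold lower in 0 of 12. The AP-1-like letters were in 6.6% of all windows, 3.89% of those of tested genes, 12.8% of those of the higher genes, 12.5% of those at least 8-fold higher and 1 of 12 (8.33%) of the lower genes. The TATA box letters were in 7.17% of all windows, 3.23% of those of tested genes, 14.1% and 25% of those of the higher and at least 8-fold higher genes, and 0 of 12 of the lower genes. All 3 motifs had larger shares among the higher genes than among tested genes, and the kB-like letters had the largest. The kB-like matches of the higher and at least 8-fold higher genes include CXCL8, CXCL6, CXCL1, CXCL3 and CXCL2. These genes lie in 1 cluster on chromosome 4, and the windows of CXCL1 and CXCL3 are alike, so the windows behind these shares are not all independent. No test was made of the shares. A match is a description of the letters in these windows and not a measured binding site, and genes with no window in the table, such as CSF3 and CCL2, were not counted.

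**Figure D5:**
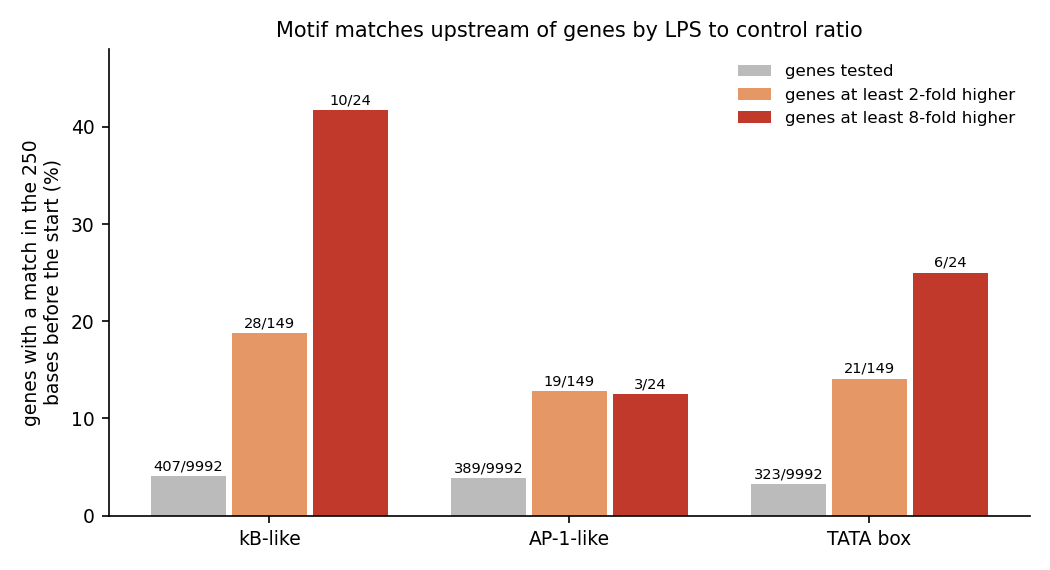
Share of genes (%, vertical axis) with a match to each motif in the 250 bases before the start, for all tested genes (grey), genes at least 2-fold higher (orange) and genes at least 8-fold higher in LPS (red); numbers above the bars give matches of windows. The kB-like share is 4.07%, 18.8% and 41.7%, and the matches of the higher genes include several from the CXC chemokine cluster on chromosome 4.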

How the data were processed

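RNA was sequenced from 1 library in each of 4 groups, prepared, per the labels' protocols, with a kit that keeps strand. The deposited values are whole-number counts per gene symbol, 1 file a library. The submitters' processing notes list TopHat, Cufflinks and hg19. None of the counting tool, strand setting, annotation and treatment of reads matching several genes is given in the sources used here, so overlapping, antisense and near-identical genes are uncertain. Groups came from the treatment labels. Counts were divided by library totals to give CPM, genes at 1 CPM or more in control or LPS were kept, and ratios were taken with a pseudocount of 1 CPM. With 1 library per group no test was fitted. The members, the 41 gene lists and the 10 marker lists were chosen with earlier results of these data known; 979 of 981 listed memberships were found. Genes named are OCLN, the 15 highest and 15 lowest log2 ratios at 5 CPM or more (without small RNA and readthrough symbols), and, from each list, members past 2-fold or else the 4 with the largest absolute ratio, with some left out for length; the LPS sensing and NF-kB lists are given by their main members. Genes named as marker or reference points, or to fill out a list, were chosen after their values were seen. Alternatives were other pseudocounts, filters, fold thresholds and scalings, and symbol classes left out. Promoter windows and gene order came from RefSeq tables on GRCh38. The steps were tested on simulated counts. Python 3.11.15, pandas 2.3.3, SciPy 1.17.1 and matplotlib 3.10.9 were used, and edgeR 4.0.16 and DESeq2 1.42.0 in R 4.3.3 for scaling factors only.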

Additional observations from a re-analysis of the deposited data

How the results depend on the processing

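The numbers of genes at least 2-fold higher (217) and lower (28) depended on the threshold and on low counts. At 1.5-fold they were 467 and 379, at 3-fold 91 and 3, and with a pseudocount of 5 CPM 135 and 1. With a pseudocount of 0.1 CPM they were 314 and 188, and with a filter at 5 CPM 175 and 13. The excess of higher over lower genes was thus much smaller at 1.5-fold or with a pseudocount of 0.1 CPM than in the main setting. TMM, median ratio and upper quartile scaling each gave 243 higher and 20 lower and moved the median of all genes by at most 0.09. Each of these 3 scalings held all 217 of the higher genes. Without readthrough symbols 205 were higher and 19 lower, and leaving out small RNA genes or the filter changed neither count. Of 155 values of the 30 named genes and OCLN under other pseudocounts and scalings, 16 moved by more than counting error, all with another pseudocount, and 0 changed sign. No paired analysis was possible because each group has 1 library, and for the same reason no replicate could be left out. Genes near 1 CPM rest on few counts and have wide intervals.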

Other observations

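Of the 217 genes higher in LPS, 114 were in none of the lists, and the examples that follow were chosen after their values were seen. TNFAIP2, a gene first found through its response to TNF, stood at 113.5 CPM in control, 1585 CPM in LPS, 3649 CPM in siOCLN+LPS and 3328 CPM in wtOCLN+LPS, 14.0-fold higher in LPS (13.3 to 14.7). G0S2, an inhibitor of fat breakdown, was at 1.76 and 28.9 CPM, and MEFV, which encodes the inflammasome protein pyrin, at 2.39 and 21.6 CPM. Genes of the basement membrane zone of epithelia were among them: LAMB3 was 6.35-fold higher (5.07 to 8.02) and COL7A1 2.23-fold (2.03 to 2.44). LAMB3 was at 36.3 CPM in LPS but at 7.44 and 8.46 CPM in the transfected libraries, near its 5.73 CPM in control. Both bradykinin receptor genes were higher, BDKRB1 from 27 to 116 counts and BDKRB2 2.63-fold (2.33 to 2.98). PDE4B, a phosphodiesterase that breaks down cAMP, went from 20 to 158 counts, and KDM6B, a histone demethylase, was 2.97-fold higher (2.84 to 3.10). RPL21, a ribosomal protein gene with many processed copies, had 0 counts in control and 247 in LPS, and this value is uncertain.

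Some of the higher genes lie next to each other in the genome. They were looked for in the RefSeq gene order as runs with at most 2 other protein-coding genes between neighbouring members; whether such runs are more common than among other genes was not tested. The largest run held CXCL8, CXCL6, CXCL1, CXCL5, CXCL3, CXCL2 and EREG on chromosome 4, in which EREG is no chemokine but an EGF receptor ligand. Other runs were PLK3, TCTEX1D4 and BTBD19 on chromosome 1, NEDD9, HIVEP1 and EDN1 on chromosome 6, and the pairs IL1A and IL1B, ICAM1 and ICAM4, SOD2 and WTAP, and LAMB3 and G0S2. TCTEX1D4 (3.52 and 20.1 CPM) and BTBD19 (4.66 and 27.8 CPM) had log2 ratios of 2.22 and 2.35, and PLK3 one of 2.11. Because the strand setting of the counting is not given in the sources used here, reads running past the end of a neighbour cannot be told apart from the gene's own.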
